A study of Mus musculus with 19 samples.

Results

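L1Md_F and the L1 subfamilies older than L1Md_A, L1Md_Gf and L1Md_T were followed in mouse spermatogonia as 10 of the 259 retrotransposon consensus sequences listed in each library. Of 19 L1 sequences, the 5 young ones (L1Md_A_5end, L1Md_A_3end, L1Md_Gf_5end, L1Md_T_3end and L1_Mm_orf2) were set aside, and of the 14 left the 10 with the highest mean RPM over all 19 libraries were kept. RPM is the number of reads scaled to a fixed total of mapped reads. They were thus chosen by their mean RPM, with KO libraries included, which was 99.0 for L1_Mus3_orf2, 80.8 for L1Md_F2_3end, 44.6 for L1Md_F3_3end, 24.3 for L1_Mus1_3end, 11.1 for MusHAL1, 10.8 for L1_Mus2_3end, 7.95 for L1_Mus3_3end, 7.22 for L1_Mus4_3end, 7.07 for Lx3_Mus_3end and 2.99 for L1Md_F_5end. The last sequence kept was L1Md_F_5end at 2.99 and the first left out was L1VL1_5end at 1.47, followed by L1VL2_5end at 1.18, MusHAL1_5end at 0.882 and L1_Mus3_5end at 0.414. The mean over the 11 wild-type and heterozygous libraries alone would have kept the same 10. RPM is not divided by length and the lengths of the consensus sequences were not used here, so levels are compared between libraries and not between sequences.

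L1 is the main LINE (long interspersed element) family of the mouse. A full-length copy carries a promoter, an open reading frame for an RNA-binding protein (ORF1), a second frame for an endonuclease and reverse transcriptase (ORF2), and a 3′ end, and the names of the consensus sequences say which stretch they hold. Young subfamilies still have copies able to move, while most copies of older subfamilies are truncated or mutated. L1Md_F is an older promoter type of mouse L1, Lx subfamilies are older still, and HAL1 elements are L1 derivatives without ORF2. DNMT3L, itself without catalytic activity, is a cofactor of the enzymes that set new DNA methylation before birth in the male germline. PLD6 is a mitochondrial protein needed to make PIWI-interacting RNAs (piRNAs), which guide silencing of retrotransposons.

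The 19 mRNA-seq libraries came from spermatogonia of mice at postnatal day 7, sorted by FACS for the surface protein EpCAM. There were 2 *Dnmt3l* wild-type (WT), 3 *Dnmt3l* heterozygous and 3 *Dnmt3l* knockout (KO) libraries, and 3 *Pld6* WT, 3 *Pld6* heterozygous and 5 *Pld6* KO libraries. KO mice were homozygous mutants, both lines had been backcrossed to C57BL/6J, and each line had its own WT mice. The labels call the libraries of a group biological replicates. The tables hold retrotransposons only, so neither the labelled cell type nor the loss of *Dnmt3l* or *Pld6* RNA was checked here. In bulk RNA of this kind, fewer cells of a type and less RNA per cell cannot be told apart. Summed over all 259 sequences, the libraries held 2103 to 14603 RPM. *Pld6* heterozygous replicate 1 stood apart, with 159 sequences listed at 0 against 60 to 90 in the other libraries. L1Md_F_5end was listed at 0 in that library, and the other 9 sequences were above 0 in all 19.

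**Figure D1:**
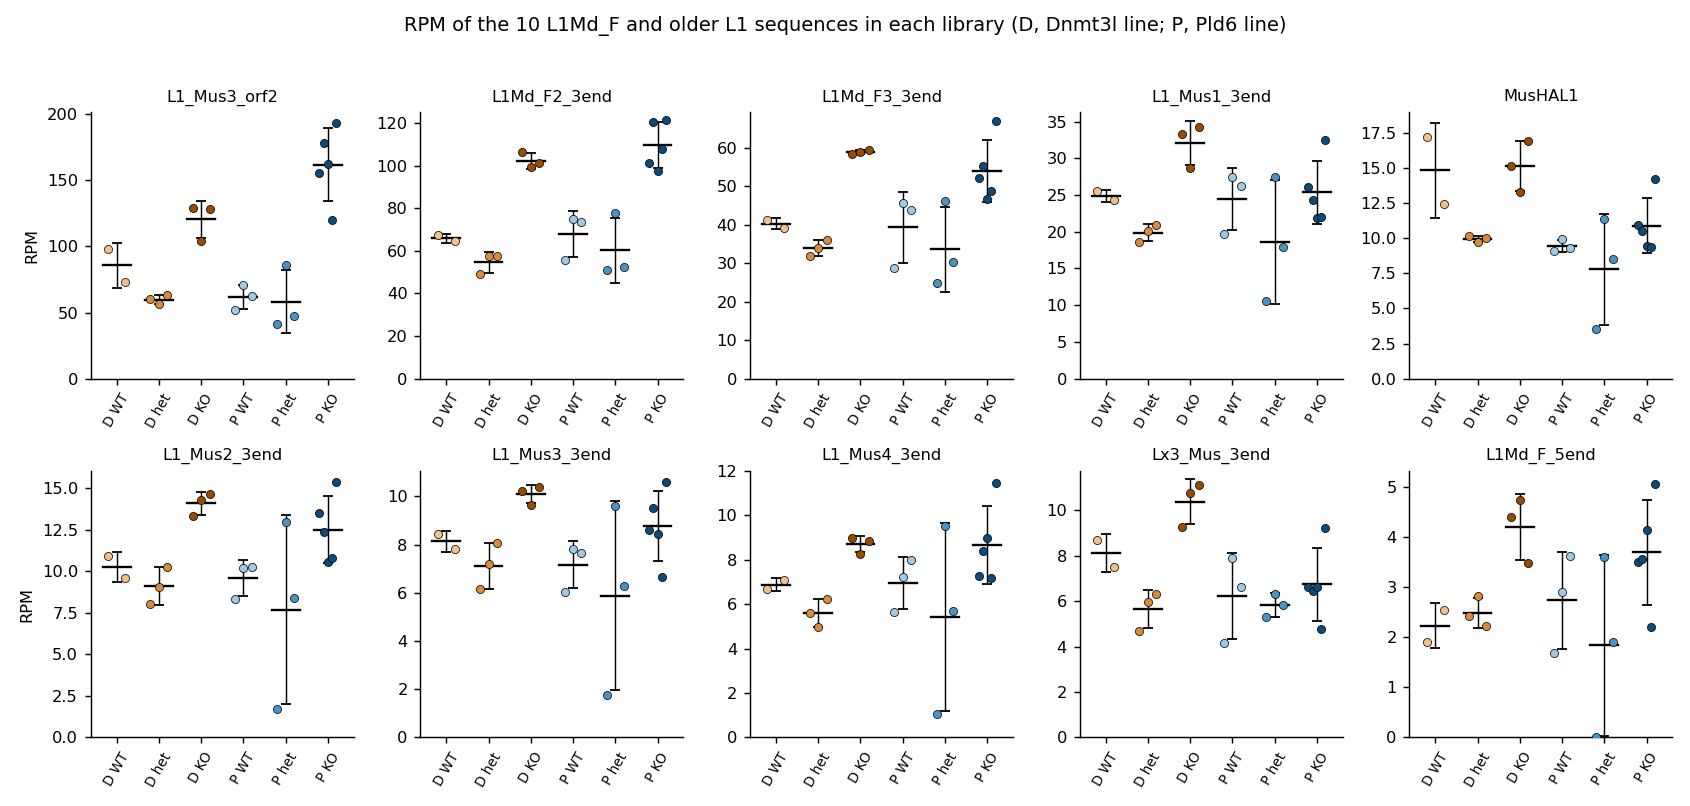
RPM of each of the 10 sequences (one panel each, vertical axis from 0) in each library, by genotype group, with the group mean as a horizontal line and the SD as bars. Every KO library lies above every WT library of its line for L1_Mus3_orf2, L1Md_F2_3end and L1Md_F3_3end. Such separation held for 35.1% of all 114 sequences tested in the *Pld6* line and 67.5% in the *Dnmt3l* line. KO and WT overlap in the *Pld6* line for 6 of the 10 sequences, MusHAL1 and Lx3_Mus_3end among them.

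The comparison of KO with WT asked whether RNA of older L1 differed without piRNAs or without *de novo* methylation. In *Pld6* KO spermatogonia, 2 of the 10 sequences rose, L1_Mus3_orf2 and L1Md_F2_3end, and none fell. Of all 114 sequences tested (those that reached 1 RPM in 2 or more libraries), 30.7% rose and 0.0% fell. The test was limma on log2(RPM + 1) over all 19 libraries, with Benjamini-Hochberg adjustment over the 114 sequences and a threshold of 0.05. The log2 scale with 1 added understates changes of sequences at low RPM. Without adjustment, 3 of the 10 had a p under 0.05, against 38.6% of the 114.

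L1_Mus3_orf2, the reverse transcriptase stretch of the L1_Mus3 subfamily, was at 52.3, 70.5 and 62.6 RPM in the *Pld6* WT libraries and at 155, 178, 162, 120 and 194 RPM in the *Pld6* KO libraries. The lowest KO library, replicate 4, stood well above the highest WT library. The mean was 61.8 ± 9.15 RPM in WT (SD, n = 3) and 162 ± 27.6 RPM in KO (SD, n = 5), a ratio of 2.62, and single KO libraries reached 1.95 to 3.13 times the WT mean. In the limma fit the log2 fold change was 1.37 (SE 0.21, adjusted p = 1.5e-05), against a median of 0.26 over all sequences tested. When libraries were instead put on a common scale by median ratios, as described with the processing, it was 0.85, still past the threshold.

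L1Md_F2_3end, a 3′ end of the F type, was at 55.6, 75.1 and 73.3 RPM in *Pld6* WT and at 101, 120, 97.7, 108 and 121 RPM in *Pld6* KO. All KO libraries were above all WT libraries, with WT replicate 1 the lowest of the 8. The means were 68.0 ± 10.7 (SD, n = 3) and 110 ± 10.8 RPM (SD, n = 5), a ratio of 1.61. The log2 fold change was 0.69 (SE 0.16, limma adjusted p = 0.0011). After median-ratio scaling it was 0.17 and no longer passed the threshold. When that scaling used only sequences outside 4 families (L1, IAP, MMERVK10/RLTR10 and MMERGLN), it was 0.47 and passed (limma adjusted p = 0.0080).

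L1Md_F3_3end, the other 3′ end of the F type, was at 28.7, 45.5 and 43.7 RPM in *Pld6* WT and at 52.0, 55.2, 46.8, 48.8 and 67.0 RPM in *Pld6* KO. The groups did not overlap, but the lowest KO library was only just above the highest WT library. The log2 fold change of 0.46 (SE 0.19) had an unadjusted p of 0.022 and missed the threshold after adjustment (limma adjusted p = 0.0665). It passed in a fit without *Pld6* heterozygous replicate 1, which entered only through the shared spread, with an adjusted p of 0.0367, where 3 of the 10 and 37.7% of the 114 were higher. Without WT replicate 2 it passed as well, at a log2 fold change of 0.58, whereas without WT replicate 1 it was 0.26 (limma adjusted p = 0.376).

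The promoter end of the same type, L1Md_F_5end, was at 1.69, 2.90 and 3.62 RPM in *Pld6* WT and at 3.50, 3.56, 4.15, 2.20 and 5.07 RPM in *Pld6* KO. The groups overlapped, and KO replicate 4 was below 2 of the 3 WT libraries. Its log2 fold change was 0.33 (SE 0.35), with a 95% interval from −0.39 to 1.06.

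Of the L1_Mus 3′ ends, L1_Mus2_3end was higher in each *Pld6* KO library than in each WT library, at 13.5, 12.4, 10.6, 10.8 and 15.4 RPM against 8.34, 10.2 and 10.2 RPM. Its log2 fold change of 0.35 (SE 0.33) did not pass the threshold. L1_Mus1_3end was at 26.1, 24.3, 21.9, 22.0 and 32.4 RPM in KO against 19.7, 27.5 and 26.2 RPM in WT. Only KO replicate 5 was above the WT range, and the log2 fold change was 0.050 with a 95% interval from −0.40 to 0.50. L1_Mus3_3end and L1_Mus4_3end overlapped between the groups, with log2 fold changes of 0.25 (SE 0.29) and 0.27 (SE 0.34). In all, every KO library was above every WT library for 4 of the 10 sequences, which was so for 35.1% of the 114.

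Lx3_Mus_3end, of the Lx type, and MusHAL1, of the HAL1 type, overlapped between *Pld6* KO and WT. Lx3_Mus_3end was at 4.17, 7.91 and 6.63 RPM in WT and at 6.61, 6.43, 6.63, 4.79 and 9.24 RPM in KO, and KO replicate 5 alone was above the WT range. MusHAL1 was at 9.13, 9.94 and 9.35 RPM in WT and at 10.96, 10.6, 9.44, 9.38 and 14.2 RPM in KO. Their log2 fold changes were 0.11 (SE 0.20) and 0.17 (SE 0.24).

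The 5 young L1 sequences rose in the same libraries, 5 of 5, with log2 fold changes from 1.96 to 4.96 and a median of 3.54, while the median over the 10 older sequences was 0.30. None of the 3 other older sequences that were tested (L1VL1_5end, L1VL2_5end and MusHAL1_5end) passed the threshold. The sign of most of the smaller changes differed between library scalings, and which scaling is the proper baseline was not tested. The median of all 114 log2 fold changes moved from 0.26 to −0.14 after median-ratio scaling, under which only L1_Mus3_orf2 and L1Md_F2_3end kept a positive value among the 10 and L1_Mus1_3end passed the threshold as lower, at −0.45 (limma adjusted p = 0.0404), where 14.0% of the 114 were lower. Scaled on sequences outside 4 families alone (L1, IAP, MMERVK10/RLTR10 and MMERGLN), 7 of the 10 were positive. L1_Mus1_3end was then at −0.16 and did not pass.

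**Figure D2:**
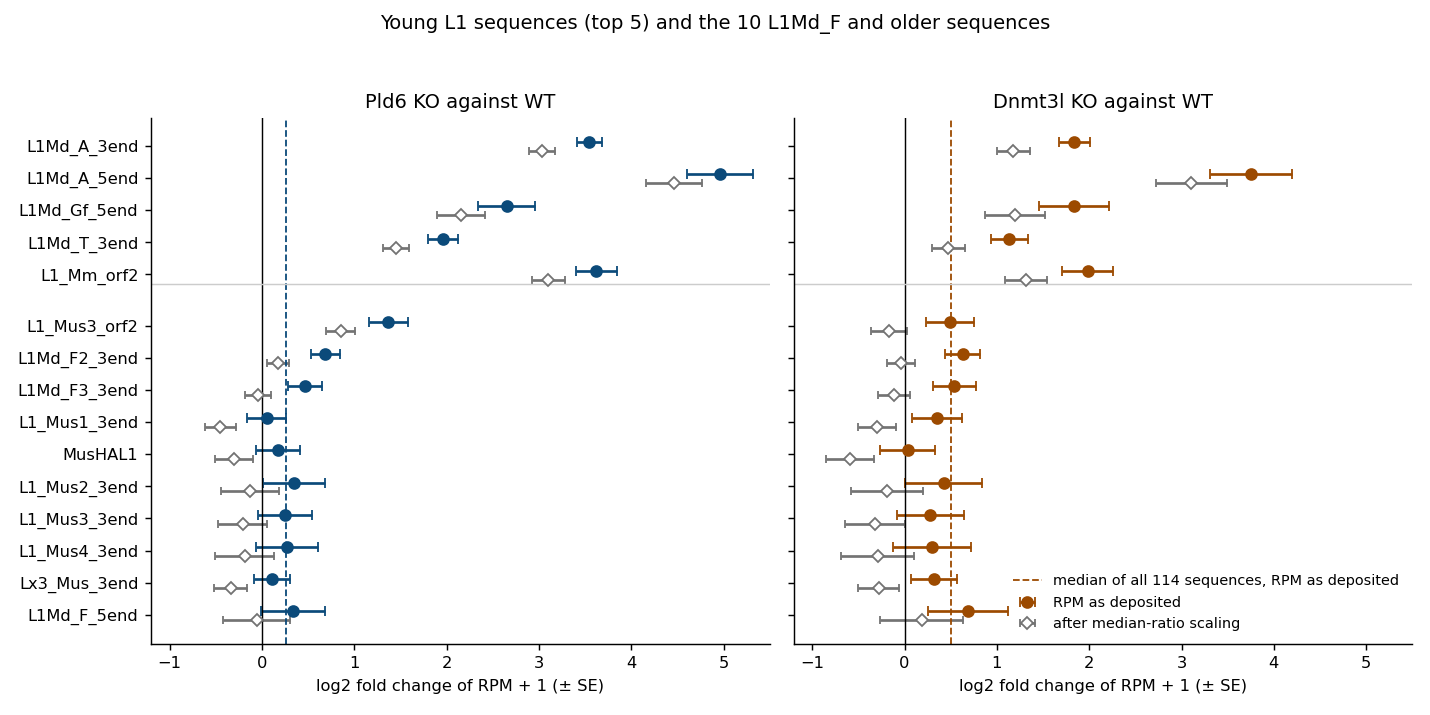
Log2 fold change of RPM + 1 between KO and WT (horizontal axis, filled points, bars are the SE from limma) for the 5 young L1 sequences and, under the grey line, the 10 older ones, with the median of all 114 sequences dashed. Open diamonds give the same values after median-ratio scaling, where 8 of the 10 older sequences turn negative in *Pld6* KO and 9 of 10 in *Dnmt3l* KO. With scaling on sequences outside 4 families, which is not drawn, 7 of the 10 are positive in *Pld6* KO and 5 of 10 in *Dnmt3l* KO.

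In *Dnmt3l* KO spermatogonia, 1 of the 10 sequences rose, L1Md_F2_3end, and none fell, while 38.6% of the 114 sequences rose and 1.75% fell. Without adjustment, 2 of the 10 had a p under 0.05, against 45.6% of the 114. L1Md_F2_3end was at 67.3 and 64.4 RPM in *Dnmt3l* WT and at 107, 99.2 and 101 RPM in *Dnmt3l* KO, with the groups far apart for their spread. The means were 65.9 ± 2.02 (SD, n = 2) and 102 ± 3.78 RPM (SD, n = 3), a ratio of 1.55. The log2 fold change was 0.63 (SE 0.19, limma adjusted p = 0.0147), against a median of 0.50 over all sequences tested. Without WT replicate 1 it was 0.66 (limma adjusted p = 0.0630) and without WT replicate 2 it was 0.60 (limma adjusted p = 0.0897), fits in which the one WT library left was assumed to vary like the other groups. After median-ratio scaling the log2 fold change was −0.033. Scaled on sequences outside 4 families, it was 0.22 and did not pass (limma adjusted p = 0.416).

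L1Md_F3_3end was at 41.3 and 39.2 RPM in *Dnmt3l* WT and at 58.2, 59.0 and 59.4 RPM in *Dnmt3l* KO. The 3 KO libraries lay close to each other and clear of both WT libraries. Its log2 fold change of 0.54 (SE 0.23) did not pass the threshold in the fit over all groups (limma adjusted p = 0.0724). L1Md_F_5end was at 1.91 and 2.55 RPM in WT and at 4.4, 4.74 and 3.48 RPM in KO, a ratio of means of 1.89, with a log2 fold change of 0.69 (SE 0.43, limma adjusted p = 0.223). Both passed in a fit without *Pld6* heterozygous replicate 1, with adjusted p-values of 0.0461 and 0.0492, which made 3 of the 10 higher against 42.1% of the 114.

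L1_Mus3_orf2, which had the widest change in *Pld6* KO, was at 97.7 and 73.5 RPM in *Dnmt3l* WT and at 129, 104 and 128 RPM in *Dnmt3l* KO. KO replicate 2 was only just above WT replicate 1. The means were 85.6 ± 17.1 (SD, n = 2) and 120 ± 14.0 RPM (SD, n = 3), a ratio of 1.41. The log2 fold change was 0.50 (SE 0.26) and did not pass (limma adjusted p = 0.147). It was 0.70 without WT replicate 1 and 0.29 without WT replicate 2.

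The L1_Mus 3′ ends were each higher in all *Dnmt3l* KO libraries than in both WT libraries. L1_Mus1_3end was at 25.5 and 24.3 RPM in WT and at 33.3, 28.7 and 34.2 RPM in KO, and L1_Mus2_3end was at 10.9 and 9.62 RPM in WT and at 13.3, 14.3 and 14.6 RPM in KO. The ratio of means for the 4 L1_Mus 3′ ends lay between 1.24 and 1.37, and the log2 fold changes lay between 0.28 and 0.42, none past the threshold. Lx3_Mus_3end was at 8.71 and 7.53 RPM in WT and at 9.26, 10.8 and 11.1 RPM in KO, with a log2 fold change of 0.32 (SE 0.25). For MusHAL1 the groups overlapped. It was at 17.3 and 12.5 RPM in WT and at 15.2, 13.3 and 16.9 RPM in KO, so that all KO libraries lay within the WT range, and its log2 fold change was 0.037 with a 95% interval from −0.59 to 0.66.

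In total, every *Dnmt3l* KO library was above every WT library for 9 of the 10 sequences, all except MusHAL1, but the same held for 67.5% of the 114. The median log2 fold change of the 10 was 0.39, below the 0.50 of all sequences tested. The young L1 sequences rose again in 5 of 5, with log2 fold changes from 1.13 to 3.75 and a median of 1.84. Median-ratio scaling moved the median of all 114 from 0.50 to −0.017 and left L1Md_F_5end as the only positive value among the 10. Scaling on sequences outside 4 families gave a median of 0.18 over the 114 and left 5 of the 10 positive.

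The call for *Dnmt3l* depended on which libraries set the spread and the baseline. With only the *Dnmt3l* WT and KO libraries in the fit, 5 of the 10 sequences passed as higher (L1_Mus3_orf2, L1Md_F2_3end, L1Md_F3_3end, L1_Mus2_3end and L1Md_F_5end), against 46.5% of the 114.

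The difference between the lines in the change of L1_Mus3_orf2 was −0.87 on the log2 scale, *Dnmt3l* KO effect minus *Pld6* KO effect (SE 0.33, 95% interval from −1.57 to −0.17). This difference had an unadjusted p of 0.0176 and missed the threshold over all sequences (limma adjusted p = 0.10). It passed after both median-ratio scalings, with values of −1.02 and −1.06. It also passed without *Pld6* KO replicate 4, the lowest KO library, with a value of −0.97. In each of these fits 6.14% of the 114 were lower. With only the WT and KO libraries in the fit, the difference passed as well, at −0.87, where 7.02% of the 114 were lower. It did not pass when any of the other 12 WT or KO libraries was left out. Against heterozygous controls it was −0.52, and −0.32 without *Pld6* heterozygous replicate 1 (limma adjusted p = 0.497). Against pooled WT and heterozygous controls it was −0.65, and −0.55 without that library, none of them past the threshold. None of the other 9 sequences had an unadjusted p under 0.05, where 28.1% of the 114 had one, and none of the 10 passed as higher or lower, where 7.89% and 4.39% of the 114 did. The difference between the lines was −0.060 for L1Md_F2_3end (95% interval from −0.58 to 0.46) and 0.075 for L1Md_F3_3end (95% interval from −0.55 to 0.70), and the sign turned for the former with heterozygous controls and for the latter with median-ratio scaling.

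Among the 6 groups, L1_Mus3_orf2 was highest in *Pld6* KO, then in *Dnmt3l* KO, whose range overlapped with it, and then in *Dnmt3l* WT, which overlapped with neither neighbour. Both *Dnmt3l* WT libraries were above all *Pld6* WT libraries for L1_Mus3_orf2 and MusHAL1, as for 20.2% of the 114, and this difference between the lines was not tested. L1Md_F2_3end and L1Md_F3_3end were highest in the mutants, which overlapped each other. All 8 KO libraries were above all 11 WT and heterozygous libraries for these 2 sequences and for L1_Mus3_orf2, as for 28.1% of the 114. The remaining sequences showed overlap between most neighbouring groups.

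Heterozygous libraries gave no call among the 10 in either line. In the *Pld6* line 0 of the 10 sequences passed in limma in either direction, 0 had an unadjusted p under 0.05, and 0.0% of the 114 passed while 4.39% had an unadjusted p under 0.05. All 10 had a lower mean in heterozygous than in WT libraries, which held for 71.9% of the 114. Without *Pld6* heterozygous replicate 1 this was so for 4 of the 10 and for 49.1% of the 114. Without heterozygous replicate 2 instead, 9 of the 10 and 30.7% of the 114 had an unadjusted p under 0.05, with a median log2 fold change of −0.72 over the 10, and still 0 passed after adjustment in limma. Replicate 1 was at 1.71 RPM for L1_Mus2_3end, at 1.77 RPM for L1_Mus3_3end and at 1.06 RPM for L1_Mus4_3end, where the other 2 heterozygous libraries were at 5.69 to 12.97 RPM. It was the lowest of its group for 10 of 10 sequences, as for 68.4% of the 114.

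In the *Dnmt3l* line 0 of the 10 passed in limma, and no sequence of the 114 had an unadjusted p under 0.05 (0.0%). With only the WT and heterozygous libraries of this line in the fit, 3 of the 10 and 10 of the 114 had such a p. Still 0 of the 10 passed after adjustment there. Every heterozygous library was below every WT library for 7 of the 10, which held for 24.6% of the 114. MusHAL1 was at 10.2, 9.76 and 10.01 RPM in the heterozygous libraries, below the 17.3 and 12.5 RPM of WT and also below all 3 KO libraries. L1_Mus3_orf2 was at 59.9, 56.5 and 63.0 RPM, also below both WT libraries, with a log2 fold change of −0.50 (SE 0.26, limma adjusted p = 0.95). Against heterozygous controls in place of WT, 5 of the 10 rose in *Dnmt3l* KO (46.5% of the 114) and 6 of the 10 in *Pld6* KO (45.6% of the 114). Without *Pld6* heterozygous replicate 1 the latter were 3 (32.5% of the 114), L1_Mus3_orf2, L1Md_F2_3end and L1Md_F3_3end.

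**Figure D3:**
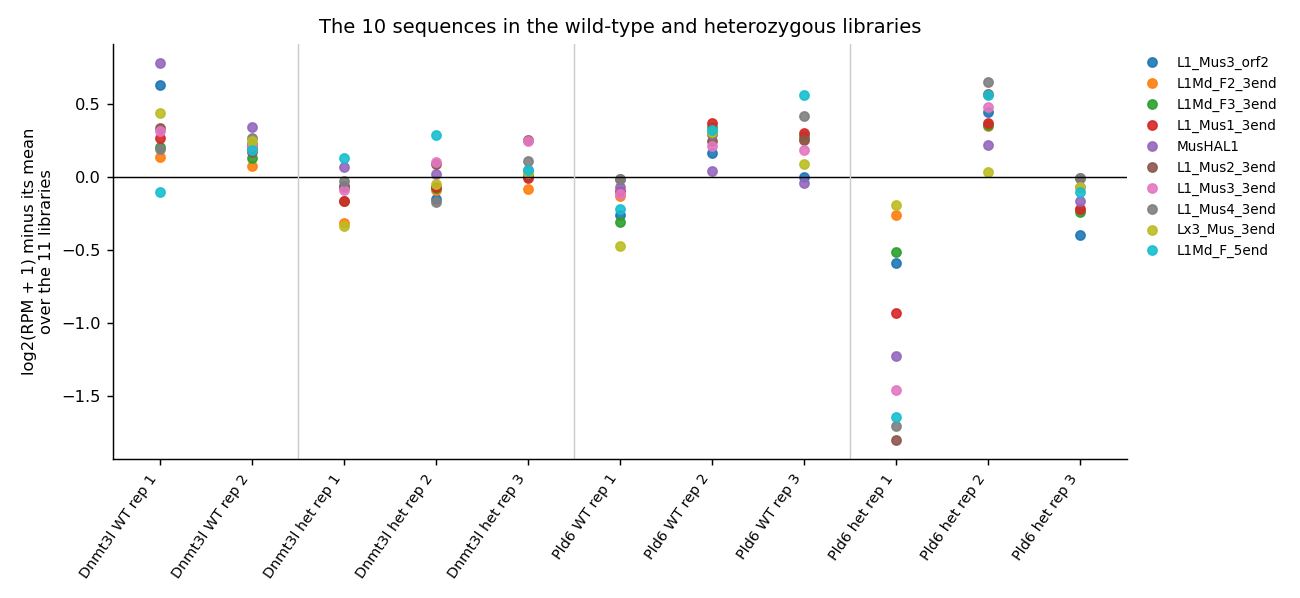
log2(RPM + 1) of each of the 10 sequences minus its mean over the 11 WT and heterozygous libraries (vertical axis), by library. *Pld6* heterozygous replicate 1 lies below 0 and replicate 2 above 0 for all 10 sequences.

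In some groups 1 library was at the same end for all 10 sequences. *Pld6* WT replicate 1 was the lowest of its group for 10 of 10 sequences (67.5% of the 114), *Pld6* heterozygous replicate 2 the highest for 10 of 10 (66.7% of the 114), and *Pld6* KO replicate 5 the highest for 10 of 10 (40.4% of the 114). Elsewhere the order was split. The lowest library was *Pld6* KO replicate 3 for 4 sequences and replicate 4 for 6, *Dnmt3l* heterozygous replicate 1 for 6, replicate 2 for 3 and replicate 3 for 1, and *Dnmt3l* KO replicate 1 for 3, replicate 2 for 6 and replicate 3 for 1. Depth was not known and its part in this was not tested.

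Set against the young sequence of the same L1 stretch in the same library, where library scaling largely cancels, the gap to the young sequence widened in KO. L1_Mm_orf2 exceeded L1_Mus3_orf2 by 1.58 ± 0.055 on the log2(RPM + 1) scale in *Pld6* WT (SD, n = 3) and by 3.83 ± 0.12 in *Pld6* KO (SD, n = 5), a widening of 2.25. L1Md_A_5end drew away from L1Md_F_5end by 4.63, and L1Md_A_3end moved from 1.07 below L1Md_F2_3end to 1.79 above it, by 2.86. In the *Dnmt3l* line the differences widened by 1.49, 3.06 and 1.21 without overlap between KO and WT, where an exact permutation test of 3 libraries against 2 cannot go below 0.2. These pairs were set with the rise of young L1 already known, so the values are a description. The two-sided exact permutation test planned for them gave 0.0357 for each pair in the *Pld6* line, also after adjustment over the 3 pairs, which is the smallest p that 5 libraries against 3 can give and adds no support.

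The gap between the 2 stretches of L1_Mus3 was also followed. In *Pld6* KO libraries L1_Mus3_orf2 exceeded L1_Mus3_3end by 3.98 to 4.11 on the log2(RPM + 1) scale against 2.88 to 3.02 in WT, and in *Dnmt3l* KO by 3.30 to 3.53 against 3.08 to 3.38 in WT. The ranges were separate in the *Pld6* line and overlapped in the *Dnmt3l* line. L1Md_F2_3end exceeded L1_Mus1_3end by 1.87 to 2.26 in *Pld6* KO against 1.42 to 1.46 in WT, and by 1.54 to 1.75 in *Dnmt3l* KO against 1.37 in both WT libraries. Both pairs were set up with these values known, so they too are a description, to which two-sided exact permutation tests (p = 0.0357 for both in the *Pld6* line, 0.4 and 0.2 in the *Dnmt3l* line) add no support.

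**Figure D4:**
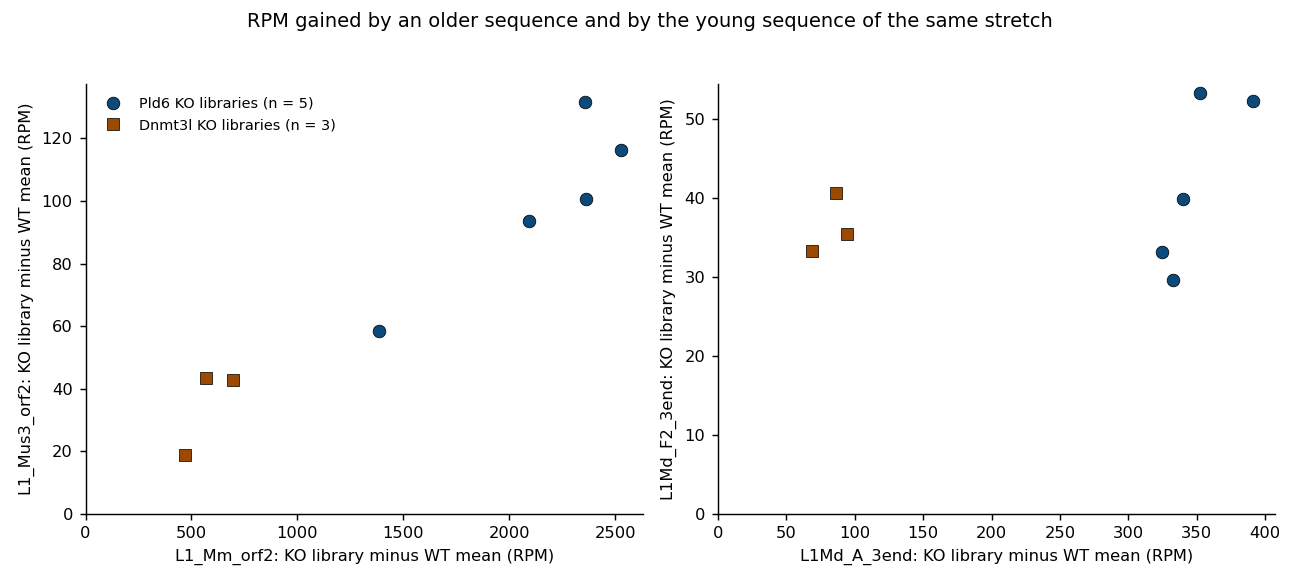
RPM gained by an older sequence (vertical axis) and by the young sequence of the same stretch (horizontal axis), each KO library minus the WT mean of its line, both axes from 0, for L1_Mus3_orf2 with L1_Mm_orf2 (left) and L1Md_F2_3end with L1Md_A_3end (right). On the right the *Dnmt3l* KO libraries gained as much L1Md_F2_3end as the lower *Pld6* KO libraries although all 3 gained less L1Md_A_3end than any *Pld6* KO library. Gains are in RPM as deposited. After median-ratio scaling the log2 fold changes in *Dnmt3l* KO were −0.033 for L1Md_F2_3end and −0.17 for L1_Mus3_orf2. Scaled on sequences outside 4 families, they were 0.22 and 0.090.

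The gains were also set side by side in RPM, as numbers of reads and not of transcripts. L1_Mus3_orf2 gained 100.1 RPM in *Pld6* KO, or 4.67% of the 2145 RPM gained by L1_Mm_orf2, with 4.21% to 5.595% in single KO libraries. In *Dnmt3l* KO it gained 34.9 RPM, or 6.04% of the 578 RPM gained by L1_Mm_orf2, with 3.98% to 7.64% in single libraries. The latter change had not passed the threshold in limma. After median-ratio scaling the log2 fold change of L1_Mus3_orf2 was −0.17 in *Dnmt3l* KO, so that gain was not kept, and 0.85 in *Pld6* KO. Scaled on sequences outside 4 families, it was 0.090 in *Dnmt3l* KO and 1.15 in *Pld6* KO, only the latter past the threshold. In WT libraries L1_Mus3_orf2 had stood at 33.1% and 44.3% of the RPM of L1_Mm_orf2 in the *Pld6* and *Dnmt3l* lines, as reads and not per length.

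L1Md_F2_3end was set beside L1Md_A_3end in the same way. In *Pld6* KO it gained 41.6 RPM, or 12.0% of the 348 RPM gained by L1Md_A_3end. In *Dnmt3l* KO it gained 36.5 RPM, or 43.9% of 83.1 RPM. Both gains are in RPM as deposited. After median-ratio scaling the log2 fold change of L1Md_F2_3end was 0.17 in *Pld6* KO and −0.033 in *Dnmt3l* KO, so the latter gain was not kept. Scaled on sequences outside 4 families, it was 0.47 in *Pld6* KO and 0.22 in *Dnmt3l* KO, only the former past the threshold. Single *Pld6* KO libraries ranged from 8.91% to 15.1%, and single *Dnmt3l* KO libraries lay higher, from 37.6% to 48.6%. How reads from young copies were divided among the older consensus sequences was not tested, and neither difference between the shares was tested.

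Summed over the 10 sequences, the *Pld6* WT libraries held 236 ± 39.0 RPM (SD, n = 3), the heterozygous 205 ± 77.0 (SD, n = 3) and the KO libraries 402 ± 53.9 (SD, n = 5). In the *Dnmt3l* line the sums were 267 ± 26.3 (SD, n = 2), 208 ± 12.2 (SD, n = 3) and 376 ± 20.9 RPM (SD, n = 3). In RPM as deposited, all 8 KO libraries were above all 11 controls, as for 28.1% of the 114 single sequences. The sums were not put on a common scale by median ratios. Under that scaling only 2 of the 10 sequences kept a positive log2 fold change in *Pld6* KO, and 1 of 10 in *Dnmt3l* KO. Scaled on sequences outside 4 families, 7 of the 10 had a positive value in *Pld6* KO and 5 of 10 in *Dnmt3l* KO. Of the summed gain in *Pld6* KO, L1_Mus3_orf2 made 60.2% and L1Md_F2_3end 25.0%. Of that in *Dnmt3l* KO they made 31.9% and 33.4%. As shares of all L1 reads the 10 sequences went the other way, from 41.0% to 48.5% in the control libraries to 22.7% to 26.2% in *Dnmt3l* KO and 9.70% to 12.8% in *Pld6* KO. Their share of the RPM of all 259 sequences was also lower in KO than in WT. It was 6.94% to 7.35% in *Dnmt3l* WT, 4.70% to 6.25% in *Dnmt3l* heterozygous and 2.66% to 3.07% in *Dnmt3l* KO libraries. In the *Pld6* line it was 7.65% to 11.6% in WT, 6.46% to 11.7% in heterozygous and 4.47% to 6.62% in KO libraries. There heterozygous replicate 1, at 6.46%, lay below KO replicate 5, at 6.62%.

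**Figure D5:**
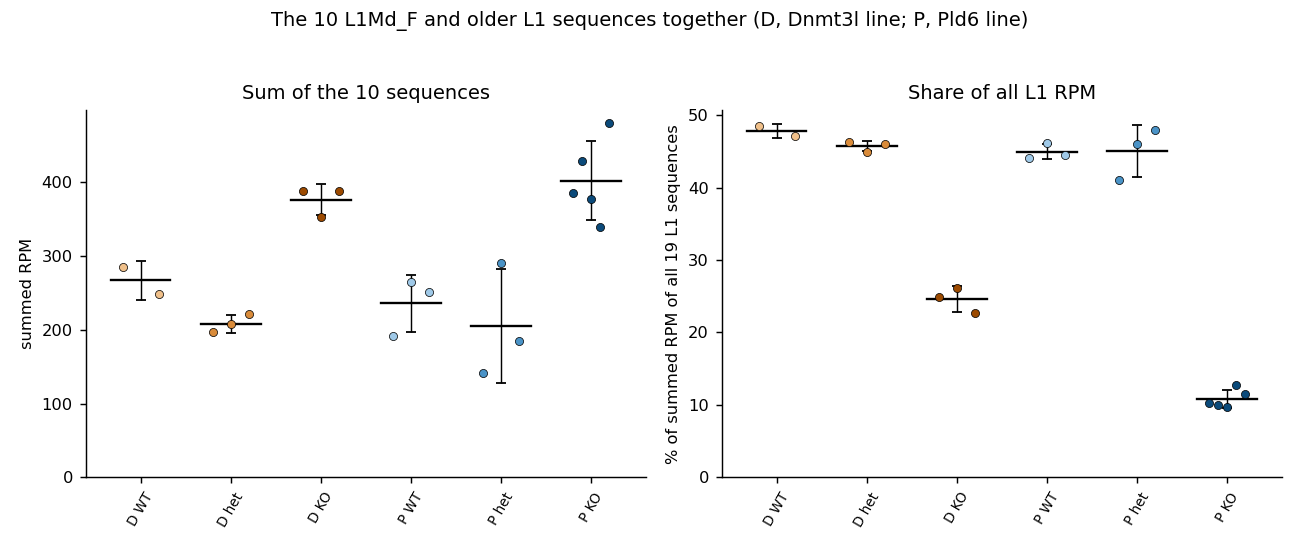
Summed RPM of the 10 sequences (left, vertical axis from 0) and their share of the RPM of all 19 L1 sequences in percent (right), one point per library, with group mean and SD. The sum, in RPM as deposited and without median-ratio scaling, is higher in all KO libraries than in all controls. The share is lowest in *Pld6* KO, at 9.70% to 12.8%.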

How the data were processed

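Poly(A) RNA was sequenced from directional libraries in single-end mode with reads of 50 bp. The authors aligned them with hisat2 to the consensus sequence of each mouse retrotransposon and deposited RPM, a read number scaled to the mapped total. The hisat2 version and settings, the handling of reads that match several sequences and the reads counted in the total are not given in the sources used here. Between 60.7% and 90.3% of a library's values under 3 RPM lay within 0.006 RPM of multiples of a single step. Whole reads were thus not recovered, depth is unknown and no count model or counting interval was used.

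Groups were taken from the labels, which give other numbers of *Dnmt3l* WT and heterozygous mice than the methods text. The model was limma (version 3.58.1, R 4.3.3, lmFit and eBayes with trend) on log2(RPM + 1) with 6 groups and no covariate, for the 114 sequences that reached 1 RPM in 2 or more libraries. P-values were two-sided. The fit was also run on simulated data, as a check of the code and not of how small a change could be detected. Permutation tests and figures used Python 3.11.15 with scipy 1.17.1, numpy 2.4.6, pandas 2.3.3 and matplotlib 3.10.9.

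The 10 sequences, the comparison lists and the pairs were chosen with earlier results of these data known. All 10 were named, with the other L1 sequences as the comparison, and the 5 sequences outside L1 with the highest Pearson r to their summed RPM. Alternatives covered pseudocounts of 0.1 and 0.5, no filter or a mean RPM of at least 5, and median-ratio scaling. Where nothing else is said, that scaling used 33 sequences with RPM of at least 5 in every library. Among these were 4 of the 10 and also 3 young L1 sequences, which rose in KO. The other scaling used the 19 of these outside 4 families (L1, IAP, MMERVK10/RLTR10 and MMERGLN). Further alternatives were the groups in the fit, heterozygous or pooled controls, limma settings, a replicate block and each library left out. Leaving out *Pld6* heterozygous replicate 1 from other comparisons was added after seeing the data. Replicate numbers mark separate mice, and same-numbered libraries did not deviate together in every pair (r from −0.30 to 0.46). The sequences of the elements, the DNA methylation and ChIP data were not analysed here.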

Additional observations from a re-analysis of the deposited data

How the results depend on the processing

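After median-ratio scaling, 1 of the 10 sequences was higher and 1 lower in *Pld6* KO (25.4% and 14.0% of the 114), 0 were higher in *Dnmt3l* KO (23.7%), and 1 had a smaller change in *Dnmt3l* KO than in *Pld6* KO (6.14%). In *Pld6* KO the log2 fold change then turned to −0.044 for L1Md_F3_3end, −0.45 for L1_Mus1_3end, −0.30 for MusHAL1, −0.13 for L1_Mus2_3end, −0.21 for L1_Mus3_3end, −0.19 for L1_Mus4_3end, −0.34 for Lx3_Mus_3end and −0.056 for L1Md_F_5end. In *Dnmt3l* KO it turned to −0.17 for L1_Mus3_orf2, −0.033 for L1Md_F2_3end, −0.12 for L1Md_F3_3end, −0.30 for L1_Mus1_3end, −0.59 for MusHAL1, −0.19 for L1_Mus2_3end, −0.32 for L1_Mus3_3end, −0.29 for L1_Mus4_3end and −0.28 for Lx3_Mus_3end. With scaling on sequences outside 4 families, 2 were higher in *Pld6* KO (28.9% of the 114), 0 in *Dnmt3l* KO (25.4%) and 1 had the smaller change in *Dnmt3l* KO (6.14%). Values turned to −0.16 for L1_Mus1_3end, −0.026 for MusHAL1 and −0.078 for Lx3_Mus_3end in *Pld6* KO, and to −0.047 for L1_Mus1_3end, −0.34 for MusHAL1, −0.087 for L1_Mus3_3end, −0.063 for L1_Mus4_3end and −0.049 for Lx3_Mus_3end in *Dnmt3l* KO. The difference between the lines for L1Md_F3_3end became −0.073 and −0.12 under these scalings.

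With the groups compared alone, 5 sequences were higher in *Dnmt3l* KO (46.5% of the 114) and 1 had the smaller change there (7.02%). Higher in *Dnmt3l* KO were 2 of the 9 with a mean RPM of at least 5 (58.1% of 62), 4 with pooled controls (46.5% of the 114), 5 with heterozygous controls (46.5%) and 3 without *Pld6* heterozygous replicate 1 (42.1%). Heterozygous controls made 6 higher in *Pld6* KO (45.6%). The difference between the lines for L1Md_F2_3end was 0.022 with heterozygous and 0.0075 with pooled controls, and 0.13 and 0.069 when *Pld6* heterozygous replicate 1 was left out of these. With pooled controls the pairs in the *Dnmt3l* line widened by 1.33, 3.14 and 1.16. The cause of these changes was not tested.

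Leaving out each library of the groups compared gave 2 to 3 sequences higher in *Pld6* KO (28.9% to 35.1% of the 114), 0 to 1 higher in *Dnmt3l* KO (28.1% to 35.1%) and 0 to 1 with the smaller change in *Dnmt3l* KO (3.51% to 6.14%; 1 without *Pld6* KO replicate 4). The 0 came without either *Dnmt3l* WT library, where the lone WT library is assumed to vary like the other groups, while the log2 fold change of L1Md_F2_3end stayed at 0.60 to 0.66. Log2 fold changes ranged from −0.093 to 0.14 for L1_Mus1_3end and from −0.12 to 0.28 for Lx3_Mus_3end in *Pld6* KO, and from −0.18 to 0.26 for MusHAL1 in *Dnmt3l* KO. The difference between the lines ranged from −0.14 to 0.076 for L1Md_F2_3end and from −0.042 to 0.28 for L1Md_F3_3end. The pairs widened by 2.22 to 2.28, 4.52 to 4.76 and 2.78 to 2.91 in the *Pld6* line, where the smaller designs cannot reach 0.05, and by 1.35 to 1.62, 2.88 to 3.29 and 1.13 to 1.28 in the *Dnmt3l* line. With the replicate block, 2 sequences were higher in *Pld6* KO and 1 in *Dnmt3l* KO, as without it, and L1_Mus1_3end in *Pld6* KO was at −0.0072. The pseudocounts, no filter and the other limma settings left the counts of calls within 1.5 times. The *Dnmt3l* WT group of 2 libraries and the unknown depth limit what could be detected.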

Other observations

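Outside L1, the 5 sequences whose log2(RPM + 1) followed the summed RPM of the 10 older L1 sequences most closely over the 19 libraries, of 96 compared, were ETnERV (Pearson r = 0.95), MT-int (0.90), RLTR10A (0.89), MMERGLN-int (0.87) and MT2_Mm (0.86). These values rank likeness only, since KO and control libraries form separate groups and all values share their libraries. Over the 11 WT and heterozygous libraries alone r was 0.84 for ETnERV, 0.83 for MT-int, 0.70 for RLTR10A, 0.28 for MMERGLN-int and 0.77 for MT2_Mm. Without *Pld6* heterozygous replicate 1 these were 0.67, 0.81, 0.52, 0.43 and 0.58 in the same order.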
